A study of Homo sapiens with 10 samples.

Results

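Human chromosome 20 carried 10342 of the 371908 regions that were listed for HER2 and for the histone mark H3K4me1 on chromosomes 1 to 22 and X in SKBR3 and BT474 cells. The regions were selected on their position in the lists, as every H3K4me1 island and every HER2 peak on chromosome 20 of the human assembly hg19, and the dense segments of 20q were chosen by their measured read density. SKBR3 and BT474 are established breast cancer cell lines in which ERBB2, the gene of the receptor HER2, is amplified. For H3K4me1 each line had 2 ChIP-seq replicates, and chromosome 20 held 2530 and 2468 islands in SKBR3 and 2149 and 2018 in BT474. HER2 was mapped by ChIP-exo, in which an exonuclease trims the bound DNA before sequencing, with 1 list for each line and treatment. The treatments lasted 3 hours and were 100 ng/ml of the growth factor EGF, a ligand of the related receptor EGFR, or water as the vehicle. The lots of the HER2 antibody differed between the lines. Chromosome 20 held 198 HER2 peaks in SKBR3 with vehicle, 174 in SKBR3 with EGF, 173 in BT474 with vehicle and 632 in BT474 with EGF. The H3K4me1 cultures are asynchronous by their labels but EGF-treated in the text of the study. Each line is a single tumour-derived line, so a difference between them is a difference between these cell populations and has no replication over tumours.

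Monomethylation of lysine 4 of histone H3 marks enhancers and the flanks of active promoters, and broad runs of it cover active genes and their surroundings. HER2 is a receptor tyrosine kinase of the cell surface, and full-length HER2 has also been found in the nucleus. The long arm of chromosome 20, 20q, is one of the regions most often gained in breast cancer, and ZNF217, NCOA3, AURKA and BCAS1 are among the genes studied there. The number of copies of 20q was not measured in these samples, and the lists do not separate more copies from more signal per copy.

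Of the HER2 sites on chromosome 20, 18 were found in all 4 lists, 11 on the short arm (20p) and 7 on 20q. All 18 are positions that both lines and both treatments shared. The sequence of 101 bases is shown at 8 of them, picked mainly for the letters in capitals, so the 8 do not show how common these are. The first 4 carry repeats of GTCTCT or its reverse complement AGAGAC, in capitals, around the midpoint of the peak. The next 3 carry CGTNTGC, where N is any base, or its reverse complement, in capitals, and of these the windows near OTOR and PTPRT are centred on that core instead of the midpoint. The last held neither in the window shown and was the peak of highest score on chromosome 20 in BT474 with EGF, with a score of 897.5. Neither was in the windows, not shown, of the sites in or near ADRA1D, BMP2, SPTLC3, NDUFAF5, KIF16B and LINC01721. The sites called near a gene lay 75.3 kb from SIRPA, 177 kb from FOXA2, 5.76 kb from LAMA5, 112 kb from OTOR and 28.2 kb from PTPRT. All sequences are from the plus strand of GRCh37, the assembly that hg19 corresponds to.
Site near SIRPA, chr20:1799421-1799521: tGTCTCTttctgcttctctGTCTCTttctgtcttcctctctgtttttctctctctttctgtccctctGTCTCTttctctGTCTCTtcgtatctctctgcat
Site near FOXA2, chr20:22742916-22743016: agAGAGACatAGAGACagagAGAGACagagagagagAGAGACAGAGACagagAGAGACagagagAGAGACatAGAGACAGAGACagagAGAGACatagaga
Site near LAMA5, chr20:60948082-60948182: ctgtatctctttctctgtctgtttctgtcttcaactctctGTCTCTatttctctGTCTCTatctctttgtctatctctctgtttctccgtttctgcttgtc
Site in NTSR1, chr20:61376741-61376841: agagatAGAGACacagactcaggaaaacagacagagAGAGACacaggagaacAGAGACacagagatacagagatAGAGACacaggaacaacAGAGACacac
Site in PTPRA, chr20:2964659-2964759: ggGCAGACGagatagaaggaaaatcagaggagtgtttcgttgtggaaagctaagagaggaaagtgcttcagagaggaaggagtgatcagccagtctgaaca
Site near OTOR, chr20:16862699-16862799: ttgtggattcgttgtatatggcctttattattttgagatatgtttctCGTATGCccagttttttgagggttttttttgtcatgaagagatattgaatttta
Site near PTPRT, chr20:41846820-41846920: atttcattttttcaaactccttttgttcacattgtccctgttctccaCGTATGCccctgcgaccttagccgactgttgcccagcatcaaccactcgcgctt
Site in CBFA2T2, chr20:32190099-32190199: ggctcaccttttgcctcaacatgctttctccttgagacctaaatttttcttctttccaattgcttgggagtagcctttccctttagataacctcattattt

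Counting 50 bp to each side of the midpoint, 8 of the 18 sites found in all lists had GTCTCT on either strand, or 44.4% (95% Wilson interval 24.6 to 66.3). The same letters were in 5.56% of windows centred 1 kb to either side of these sites and in 7.72% of all windows of 101 bp on chromosome 20. In the 4 lists GTCTCT stood in 22.2% of the chromosome 20 peaks of SKBR3 with vehicle, 22.4% with EGF, 16.8% in BT474 with vehicle and 17.6% with EGF, against 7.83%, 10.6%, 8.09% and 7.12% of their flanking windows. This motif was picked after the sequences had been read, so its shares are a description. The core CGTNTGC stood in 1.52% of the windows of SKBR3 with vehicle, 8.62% with EGF, 11% of BT474 with vehicle and 5.54% with EGF. It stood in 1.15% of all windows of chromosome 20 and in 1.01%, 0.862%, 2.02% and 1.03% of the flanking windows of these lists. The study found this core by a search in HER2 peaks of the same lines, and not in its SKBR3 sites bound with vehicle only. Its shares are therefore a description too. In the whole peak it was found at 3 of the 18 sites. A match of letters does not show which protein was bound.

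The 4 H3K4me1 libraries held 15097156 to 18713926 reads inside islands, and their islands covered 10.4% to 11.3% of the known sequence of the genome. The depth behind the HER2 lists is unknown, and their scores, whose scale is not stated, were compared only within a list. Confidence intervals are 95% Wilson intervals unless stated, and cover counting error only. The authors removed regions with a high input signal, separately for each line, so that a stretch with no island or peak may have held none or may have been removed, and these cannot be told apart from the lists.

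Chromosome 20 was covered by H3K4me1 islands more widely in SKBR3 than in BT474. The cover of its known sequence was 25.1% and 26.5% in the SKBR3 replicates and 20.1% and 18.6% in the BT474 replicates, that is 25.8% ± 0.966 against 19.3% ± 1.03 (SD, n = 2). The groups did not overlap. Over the whole genome they did not overlap either, at 11.2% and 11.3% in SKBR3 and 10.9% and 10.4% in BT474. The share of all island reads that fell on chromosome 20 was nearly equal, at 5.90% ± 0.154 in SKBR3 and 5.77% ± 0.124 in BT474, although the chromosome makes up 2.10% of the known genome. Reads per kb of island, not yet scaled by library, differed most on 20q, where SKBR3 had 63.5 ± 1.57 reads per kb of island and BT474 96.3 ± 10.8, while on 20p the values were 51.0 ± 1.60 and 55.7 ± 7.02. Scaled by the library medians, 20p turned, with a log2 difference of -0.13 (BT474 minus SKBR3).

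Density was then compared between the lines in bins of 1 Mb. The relative density of a bin is the number of reads per kb of island in it, divided by the median of that library over the 1532 bins of the genome with at least 50 kb of island cover in every library. Of 64 bins on chromosome 20, 49 could be tested. By edgeR's quasi-likelihood test, 27 had a higher density in SKBR3 and 17 in BT474, at an adjusted p under 0.05. Across the genome 35.4% of tested bins were higher in SKBR3 and 35.1% in BT474. On 20p, 16 of 22 bins were higher in SKBR3 and 3 in BT474, and on 20q 11 and 14 of 27. With another scaling of the libraries, TMM, which moves the median of all bins by 0.19 on the log2 scale towards BT474, the counts on chromosome 20 became 6 and 23, or 12.2% and 46.9%, against 8.55% and 63.6% of all bins under the same scaling. Island cover, tested with limma, was higher in SKBR3 in 38 of 57 bins and in BT474 in 8, against 38.4% and 44.3% of bins genome-wide. The 38 include the bins from 51 to 52 and from 53 to 54 Mb, which had 0% in both BT474 replicates. These passed the filter of 1% mean cover through SKBR3 alone.

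**Figure D1:**
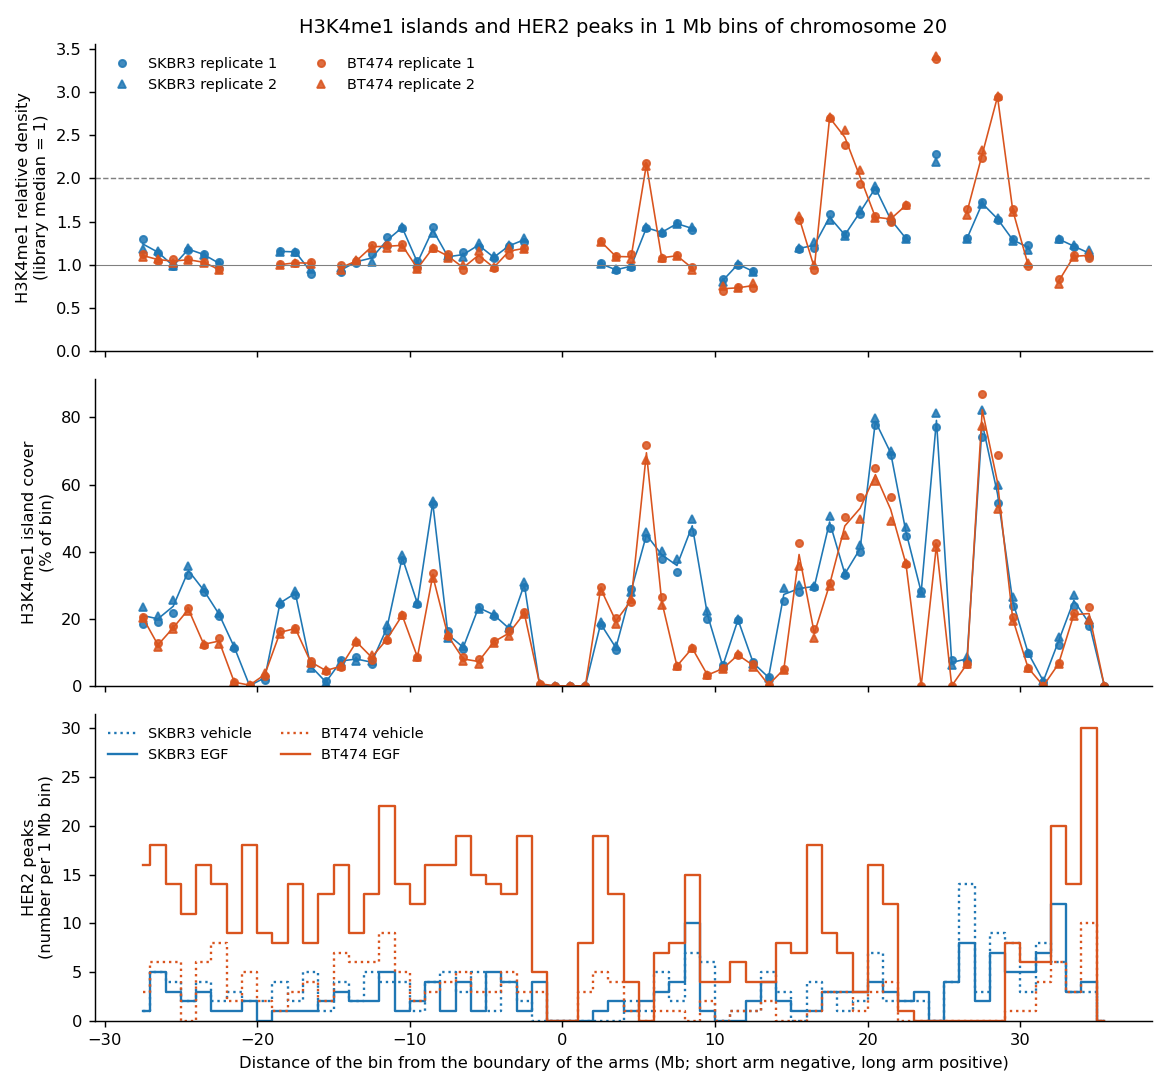
H3K4me1 relative density (top, library median 1), H3K4me1 island cover in percent of the bin (middle) and the number of HER2 peaks (bottom) in 1 Mb bins of chromosome 20, by distance in Mb from the boundary of the arms. Points are replicates, solid lines in the upper panels are their means, bins that could not be tested for density are left blank, the dashed line marks a relative density of 2, and BT474 rises above it in 7 bins of 20q, 4 of which hold no HER2 peak of that line.

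The short arm was even in both lines. Its bins ranged from 0.891 to 1.44 in the first SKBR3 replicate and from 0.952 to 1.43 in the second, and from 0.940 to 1.24 and 0.934 to 1.21 in the BT474 replicates. The median over its 22 bins was 1.14 and 1.13 in SKBR3 and 1.05 and 1.05 in BT474, a log2 difference of -0.11 (BT474 minus SKBR3, SE 0.0096, limma adjusted p = 0.000126 over 38 arms). Of the 38 arms 36.8% were called higher in SKBR3 and 47.4% in BT474. The arms were tested with scaling by library medians only. TMM moved the median of all bins by 0.19 on the log2 scale towards BT474, which is more than the 20p difference. It turned the median difference of the chromosome 20 bins from -0.102 to 0.0826, and the direction on 20p was not tested with TMM. On 20q the bins ranged from 0.800 to 2.28 over the SKBR3 replicates and from 0.691 to 3.42 over the BT474 replicates. The median over its 27 bins was 1.3 in both SKBR3 replicates and 1.28 and 1.26 in BT474, the highest of the 38 arms in both lines. The log2 difference of these medians, -0.04 (SE 0.0098, limma adjusted p = 0.0139), turned to 0.20 when the mean over bins replaced the median, and to 0.34 for all reads over all island kb. Without the first SKBR3 replicate the adjusted p of the median was 0.0527, and without the first BT474 replicate 0.071.

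The lines alternated in blocks along 20q. The limits of the blocks were set here by eye from these same bin values, so the counts per block are a description. From 30 to 34 Mb all 4 bins were denser in BT474 by the edgeR test. This block holds PLAGL2, MAPRE1 and NCOA6. From 34 to 43 Mb, where DSN1 and FAM83D lie, all 6 bins that could be tested were denser in SKBR3. Mean cover there was 22.1% and 23.7% in SKBR3 and 8.16% and 7.68% in BT474, and cover was called higher in SKBR3 in 7 of 9 bins and in BT474 in 0. From 43 to 48 Mb, 4 of 5 bins were denser in BT474 and 1 in SKBR3. From 48 to 50 Mb, 1 of 2 bins was denser in SKBR3 and 0 in BT474, and cover was higher in SKBR3 in both. From 50 to 58 Mb the 6 bins tested were all denser in BT474, while cover was higher in SKBR3 in 6 of 8 bins and in BT474 in 0. The bins from 51 to 52 and from 53 to 54 Mb had 0% cover in both BT474 replicates. They passed the filter of 1% mean cover through SKBR3 alone, so their cover calls are a description. From 58 to 63 Mb, 3 of 4 tested bins were denser in SKBR3 and none in BT474.

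Bins with a relative density of at least 2, as the mean of a line's replicates, are called dense. In BT474 7 bins of chromosome 20 were dense, all on 20q, out of 12 in the genome, where 0.783% of tested bins were dense. In SKBR3 1 bin of chromosome 20 was dense, out of 17 in the genome (1.11%). These bins were chosen for their density, so the values that follow are a description. The lowest dense bin of BT474 had 2.01 and the highest bin outside 1.69, and for SKBR3 on chromosome 20 the values were 2.23 and 1.89. When the first replicate alone chose the bins, 6 were dense in BT474, with 2.14 to 3.42 in the second replicate, which had not been used. The 7 bins span 11.8% of the known sequence of chromosome 20 and held 51.5% and 50.9% of its island reads in the BT474 replicates, against 30.3% and 30.4% in the SKBR3 replicates.

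**Figure D2:**
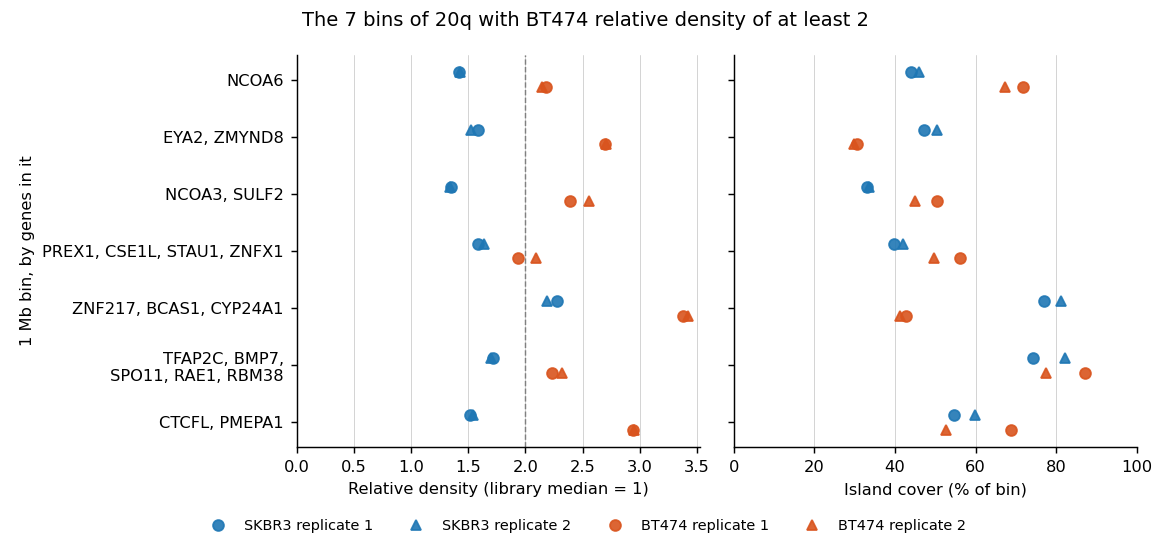
Relative density (left) and island cover in percent (right) of the 7 bins of 20q that were dense in BT474, each named by its genes from the gene lists, with 1 point per replicate. The dashed line marks the threshold of 2, only the bin of ZNF217, BCAS1 and CYP24A1 passes it in SKBR3, and in that bin the 2 SKBR3 replicates have the wider cover, 77% and 81.2% against 42.6% and 41.2%.

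The dense bin from 33 to 34 Mb holds 20 protein-coding genes, among them NCOA6, a coactivator of nuclear receptors. Its relative density was 1.42 and 1.43 in SKBR3 and 2.18 and 2.14 in BT474. Cover of the bin was 44% and 45.9% in SKBR3 and 71.6% and 67.3% in BT474, a difference of 24.5 percentage points (limma adjusted p = 0.000276). Density and cover were both higher in BT474 here. NCOA6 itself was covered at 46.6% and 51.4% in SKBR3 and at 95.4% and 98.9% in BT474 (48.2 points higher, limma adjusted p = 0.00444).

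The dense bins from 45 to 48 Mb form a block with 16 protein-coding genes. The bin of EYA2 and ZMYND8 had a relative density of 1.58 and 1.52 in SKBR3 and 2.70 and 2.71 in BT474. That of NCOA3 and SULF2 had 1.35 and 1.34 against 2.39 and 2.56. That of PREX1, CSE1L, STAU1 and ZNFX1 had 1.58 and 1.64 against 1.93 and 2.10, so its first BT474 replicate was under the threshold. Within the block the genes moved in both directions. ZMYND8, a reader of histone marks, was covered at 52.1% and 49.2% in SKBR3 and 96.5% and 96.2% in BT474, which was 45.7 points higher (limma adjusted p = 0.00414). EYA2, a transcriptional coactivator and phosphatase whose gene lies beside ZMYND8, went the other way, from 64.3% and 67.7% in SKBR3 to 17.6% and 15.8% in BT474 (-49.3 points, limma adjusted p = 0.00414).

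NCOA3, also known as AIB1 and a coactivator of the estrogen receptor, had a cover of 75.0% and 73.4% in SKBR3 and 97.4% in both BT474 replicates (23.2 points, limma adjusted p = 0.00461). PREX1, an exchange factor for Rac, was 19.8 points higher in BT474 (limma adjusted p = 0.0111) and STAU1, which binds double-stranded RNA, 34.4 points higher (limma adjusted p = 0.0258), though for STAU1 the difference within 5 kb of the start site was -3 points. ZNFX1, a sensor of RNA, was 18.9 points lower in BT474, at 33.8% and 31.1% against 14% and 13.1% (limma adjusted p = 0.00801). SULF2, a sulfatase that acts on heparan sulfate, and CSE1L, a nuclear export factor for importin alpha, did not pass, with adjusted p by limma of 0.435 and 0.135. SULF2 had 53.3% in the first BT474 replicate and 18.3% in the second, and its difference of 15.3 points became -2.17 without the first.

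The bin from 52 to 53 Mb was the densest of chromosome 20 in both lines, at 2.28 and 2.19 in SKBR3 and 3.38 and 3.42 in BT474. It holds ZNF217, BCAS1, CYP24A1 and PFDN4. ZNF217, a zinc finger factor studied as an oncogene of breast cancer, was covered almost whole in every library, at 85.8% and 93.3% in SKBR3 and 97.9% and 96.7% in BT474, and did not pass the test (7.73 points, limma adjusted p = 0.134). BCAS1, named for its amplification in breast cancer, had 93.9% and 84.0% in SKBR3 and 0% in both BT474 replicates. CYP24A1, the hydroxylase that inactivates vitamin D, had 100% in both SKBR3 replicates and 0% in both BT474 replicates. Genes at 0% in a line passed the filter on mean cover through the other line alone, so their values are a description and no p is given. The widest SKBR3 islands of chromosome 20 lay here, 171.4 and 181.6 kb across BCAS1 and CYP24A1, and no base of them was covered in BT474.

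BT474 had a gap here. No island of either BT474 replicate lay in chr20:52544801-52867200, of which SKBR3 islands covered 280.2 and 273.4 kb, or 85.9% on average. The last BT474 island before it ended at the same position in both replicates, and the first one after it began at different positions. None of the 4 HER2 lists had a peak in it. On chromosome 20 there were 68 stretches of at least 100 kb without a BT474 island, and in 8 of them SKBR3 islands covered at least 25%. There were 50 such stretches without an SKBR3 island, and in 0 of them did BT474 islands cover 25%.

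Of 545 protein-coding genes on chromosome 20, 29 (5.32%) had no island base in either BT474 replicate and at least 25% cover in both SKBR3 replicates, against 0.831% of genes in the genome. The reverse was so for 3 genes (0.550%), against 1.65% in the genome. The 29 genes lay mainly from 34 to 43 Mb, with 13, and from 50 to 58 Mb, with 9. The 9 were BCAS1, CYP24A1, PFDN4, TSHZ2, CTCFL, PCK1, ZBP1, C20orf85 and HMGB1P1, a copy of another gene whose reads may be shared with it, named here because of these values. TSHZ2, a zinc finger homeobox factor, had 48.6% and 54.0% in SKBR3. CTCFL, the germline paralogue of the insulator protein CTCF, had 36.8% and 49.8%.

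Both bins from 55 to 57 Mb were dense in BT474. The first, with TFAP2C, BMP7, SPO11, RAE1 and RBM38, had a relative density of 1.72 and 1.70 in SKBR3 and 2.23 and 2.32 in BT474. The second, with CTCFL and PMEPA1, had 1.52 and 1.54 against 2.94 and 2.95. Their cover did not pass the test, with limma adjusted p of 0.677 and 0.581. RAE1, an mRNA export and spindle factor, showed the largest gain of cover in BT474 among the listed genes, from 21.6% and 4.24% in SKBR3 to 97.6% and 100% in BT474 (85.9 points, limma adjusted p = 0.00634). RBM38, an RNA-binding target of p53, was 47.2 points higher in BT474 (limma adjusted p = 0.0127), PMEPA1, an inhibitor of TGF-beta signalling, 29.9 points (limma adjusted p = 0.0065) and BMP7, a bone morphogenetic protein, 11.1 points (limma adjusted p = 0.0277). TFAP2C, the AP-2 gamma factor of luminal cells, had 81.3% and 82.6% against 100% and 89.3% and did not pass (limma adjusted p = 0.0961), and SPO11, the meiotic recombination enzyme, was covered at 100% in all 4 libraries.

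The widest island of the first BT474 library in the whole genome lay in this block, 415.8 kb across PMEPA1 at chr20:56221201-56637000, with a relative density of 3.14. In the second BT474 replicate 81.0% of it was covered, and in SKBR3 57.9% and 64.2%. The next widest on chromosome 20 in that library were over PREX1 (202 kb) and over NCOA3 and SULF2 (167.6 kb). In the second BT474 replicate they were over PREX1 (188.4 kb), from BMP7 to RBM38 (178.2 kb) and over ZMYND8 (173.6 kb). In SKBR3 the next widest lay at 48.8 to 49.0 Mb, outside any protein-coding gene, and in TSHZ2.

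Gene by gene, 470 of the 545 protein-coding genes of chromosome 20 could be tested for cover of the gene with 5 kb before its start. Cover was higher in SKBR3 for 153 and in BT474 for 79, while over all genes tested 22.1% were higher in SKBR3 and 27.6% in BT474. The tested genes include the 29 at 0% in BT474 and the 3 at 0% in SKBR3 given above. These passed the filter on mean cover through the other line alone. BCAS1, CYP24A1, CD40 and FAM83D are among them and were called, so these counts and those of the gene lists are in part a description. The median difference was -5.42 points on chromosome 20 and 1.96 in the genome. These counts depended on the replicates. With any library left out, fewer genes passed in both directions, on chromosome 20 and over all genes. Without either SKBR3 replicate, the share of chromosome 20 genes higher in BT474 came close to that over all genes. Of the 52 listed genes that passed, 34 and 32 still passed without the first and the second SKBR3 replicate, 13 and 15 without the first and the second BT474 replicate, and none reversed. Among the genes given here with a p, EYA2, GNAS, NCOA3, SLPI and ZMYND8 passed in all 4 of these fits, and MAPRE1 and STAU1 in none. In a window of 5 kb on either side of the start site, 21 of 51 listed genes kept their call, 26 lost it and 4 reversed. NCOA6, ZMYND8, PREX1, RAE1, AURKA, CSTF1, PLAGL2, NCOA3 and PMEPA1 were among those that lost it, and ADNP and RBM38 among those that kept it.

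**Figure D3:**
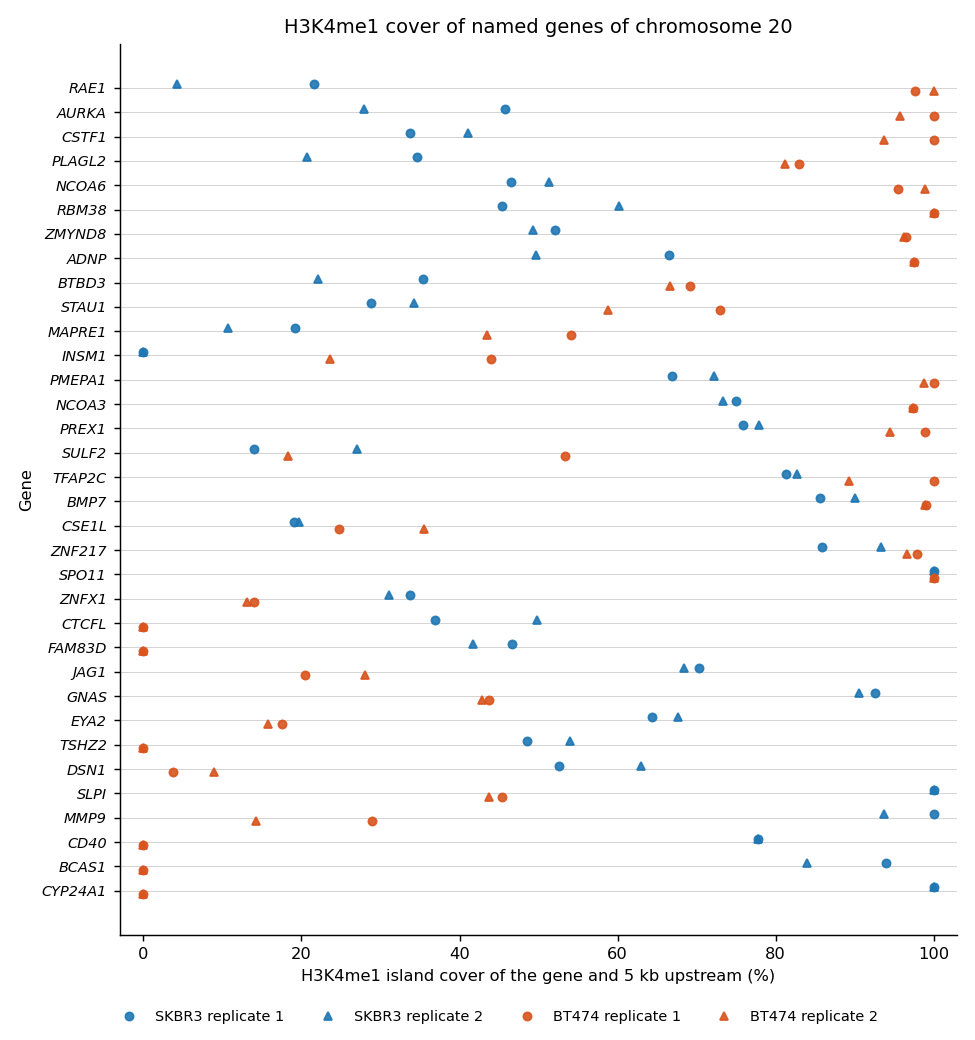
H3K4me1 island cover in percent of the gene and the 5 kb before it, for the listed genes named in the text, with 1 point per replicate (circles replicate 1, triangles replicate 2), ordered by the difference between lines. RAE1 at the top runs from 4.24% in the second SKBR3 replicate to 100% in the second BT474 replicate, and CYP24A1 at the bottom from 100% in SKBR3 to 0% in BT474.

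Among 40 genes of 20q studied in breast cancer, 39 could be tested, of which 12 were higher in SKBR3, 12 in BT474 and 15 did not pass, with a median difference of 5.53 points. Both shares are 30.8%, against 33.5% and 20.8% of all genes tested on 20q. AURKA, the mitotic kinase Aurora A, had 45.8% and 27.9% in SKBR3 and 100% and 95.7% in BT474 (61.0 points, limma adjusted p = 0.0118), and its neighbour CSTF1, a cleavage stimulation factor for mRNA 3′ ends, was 59.5 points higher (limma adjusted p = 0.00508). In the other direction CD40, a receptor of the TNF family, had 77.8% in both SKBR3 replicates and 0% in BT474. MMP9, a matrix metalloproteinase, was 75.3 points lower in BT474 (limma adjusted p = 0.00678). SLPI, a protease inhibitor, was 55.5 points lower (limma adjusted p = 0.00404) and GNAS, the stimulatory G protein subunit, 48.3 points (limma adjusted p = 0.00404). Over the gene body alone, without the 5 kb before the start, the SLPI difference was -2.60 points and did not pass (limma adjusted p = 0.393).

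Of 35 transcription factors and chromatin genes on the chromosome 31 could be tested, with 9 higher in SKBR3, 7 in BT474 and 15 not passing, against 32.6% and 16.8% of all genes tested on the chromosome. PLAGL2, a zinc finger factor, was 54.4 points higher in BT474 (limma adjusted p = 0.00942) and ADNP, a homeobox factor of chromatin, 39.4 points (limma adjusted p = 0.0226). Of 17 genes of mitosis and DNA replication all could be tested, with 5 higher in SKBR3, 6 in BT474 and 6 not passing, or 29.4% and 35.3%. MAPRE1, a protein of growing microtubule ends, was 33.8 points higher in BT474 (limma adjusted p = 0.0211). DSN1, a kinetochore protein, was 51.5 points lower (limma adjusted p = 0.00774) and FAM83D, a spindle protein, had 46.7% and 41.7% in SKBR3 and 0% in BT474. Several genes stand in more than 1 list, so the lists are not separate counts.

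No bin of 20p was dense. Of 33 genes listed there 30 could be tested, and 10 were higher in SKBR3, 4 in BT474 and 16 did not pass, with a median difference of -4.14 points. All genes tested on 20p gave 30.6% and 8.92%, and the list 33.3% and 13.3%. JAG1, a ligand of Notch receptors, was covered at 70.4% and 68.4% in SKBR3 and 20.5% and 28.1% in BT474 (-45.1 points, limma adjusted p = 0.00617). BTBD3, which directs the growth of dendrites, had 35.4% and 22.2% in SKBR3 and 69.1% and 66.7% in BT474 (39.1 points, limma adjusted p = 0.0159), and INSM1, a factor of neuroendocrine cells, 0% in both SKBR3 replicates against 44% and 23.6% in BT474. Among the listed genes of 20p the largest line difference in relative density was at THBD, which encodes the anticoagulant receptor thrombomodulin, with 1.61 and 1.57 in SKBR3 and 0.68 and 0.79 in BT474.

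HER2 peaks were concentrated on chromosome 20 in SKBR3 and not in BT474. Chromosome 20 held 7.63% (6.67 to 8.71) of all peaks in SKBR3 with vehicle and 6.90% (5.98 to 7.96) with EGF, but 2.02% (1.74 to 2.34) in BT474 with vehicle and 2.16% (2 to 2.33) with EGF. Per Mb of known sequence this was 3.33, 2.92, 2.91 and 10.6 peaks. Both SKBR3 lists had more peaks per Mb here than on any other of the 23 chromosomes, at 3.63 and 3.29 times their genome-wide rate, whereas in BT474 chromosome 20 was 13th and 10th, at 0.963 and 1.03 times. The number with EGF over that with vehicle was 0.879 in SKBR3 and 3.65 in BT474, against 0.971 and 3.43 in the genome. There was 1 list per condition, so none of these differences has a replicate check.

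The arms also differed. The share of chromosome 20 peaks on 20q was 59.1% (52.1 to 65.7) in SKBR3 with vehicle and 64.4% (57.0 to 71.1) with EGF, and 35.3% (28.5 to 42.6) in BT474 with vehicle and 41.3% (37.5 to 45.2) with EGF. Per Mb, 20q had 1.14 and 1.43 times as many peaks as 20p in SKBR3 and 0.430 and 0.556 times as many in BT474. Most of the peaks lay in introns or between genes. Introns held 46.0% and 51.1% of them in SKBR3 and 53.8% and 51.7% in BT474, and the 1 kb before a transcription start held 4.60% to 6.17% over the 4 lists.

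From 50 to 58 Mb, a stretch set from these data, the SKBR3 lists had 42 and 31 peaks and the BT474 lists 1 and 9. With EGF the longest distance between neighbouring BT474 peaks anywhere in the genome was here, 6.98 Mb at chr20:50447428-57425139, and with vehicle it was 7.84 Mb at chr20:49636300-57475298, also the longest in the genome. The median distance on chromosome 20 was 0.0443 Mb with EGF and 0.167 Mb with vehicle. ZNF217, BCAS1, AURKA, TFAP2C, RAE1 and PMEPA1 lie in this stretch, and so do 3 of the 7 dense bins of BT474. SKBR3 had 14 peaks with vehicle and 8 with EGF in the bin from 54 to 55 Mb and 9 and 7 in that from 56 to 57 Mb. The second longest stretch of chromosome 20 in BT474 with EGF, 1.56 Mb at chr20:32826515-34387924, spanned the dense bin of NCOA6.

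**Figure D4:**
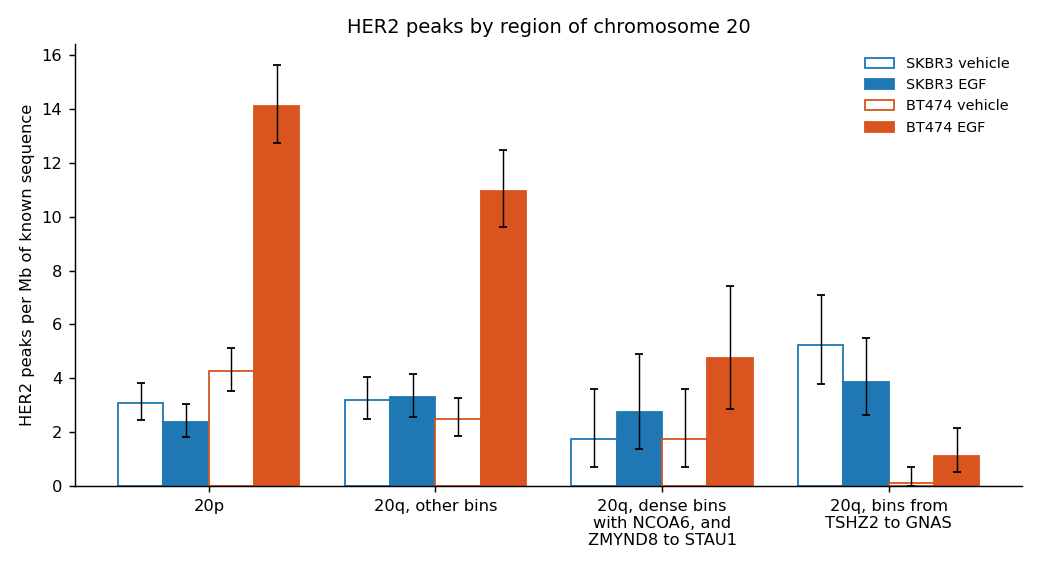
HER2 peaks per Mb of known sequence on 20p, in the 24 other bins of 20q, in the 4 dense bins of NCOA6 and of EYA2 to ZNFX1, and in the 8 bins from 50 to 58 Mb. These 8 bins are labelled by TSHZ2 and GNAS but hold genes before TSHZ2 too. Bars are single lists, open for vehicle and filled for EGF, with exact 95% Poisson intervals that cover counting error only. BT474 with EGF falls from 14.1 per Mb on 20p to 1.13 in the last group, where SKBR3 has 5.25 and 3.88. The last group was set with these peak counts known, so its rates are a description.

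The dense bins of BT474 as a whole had fewer HER2 peaks of that line per Mb than the other bins of 20q, though the bin of EYA2 and ZMYND8 had 3 with vehicle and 9 with EGF. In BT474 with EGF they held 2.71 peaks per Mb against 9.22 in the other bins of 20q, and with vehicle 1.00 against 2.06. In SKBR3 the same bins held 2.71 against 3.73 with vehicle and 2.86 against 3.51 with EGF. In BT474 with EGF the 4 dense bins outside the stretch from 50 to 58 Mb had 4.75 peaks per Mb (exact Poisson interval 2.86 to 7.42). The 24 other bins of 20q outside both had 11 (9.6 to 12.5). In BT474 with vehicle the same bins had 1.75 (0.704 to 3.61) and 2.49 (1.87 to 3.26), with intervals that overlap. The stretch from 50 to 58 Mb was set with these peak counts known, and leaving it out raised the rate of the other bins with EGF from 9.22. In the bin of ZNF217 no list had a peak, which at the floor of 3 counts allows up to 3 peaks.

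In 3 stretches of at least 500 kb on chromosome 20, BT474 had neither an island nor a HER2 peak. They were 0.554 Mb within PTPRT at chr20:41232050-41786044, 1.19 Mb around TSHZ2 at chr20:50933601-52126400, and 1.62 Mb around DOK5 at chr20:52890601-54512400. The genome held 77 such stretches in BT474, and among them the one around TSHZ2 had the most SKBR3 island cover, 352.6 and 373.2 kb. SKBR3 had 535 such stretches in the genome and 0 on chromosome 20.

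The peaks of SKBR3 that were also found in BT474 were counted by arm. A peak counts as shared if it overlaps a peak of the other list by at least 1 bp. Of the SKBR3 peaks with EGF on 20p, 88.7% (78.5 to 94.4) were found in BT474 with EGF, and on 20q 50.9% (41.8 to 60.0), against 84.7% in the genome. Of the 112 SKBR3 peaks with EGF on 20q, 31 lay from 50 to 58 Mb, where BT474 with EGF had 9. Of the SKBR3 peaks with vehicle 17.3% (10.6 to 26.9) on 20p and 5.98% (2.93 to 11.8) on 20q were found in BT474 with vehicle, with intervals that overlap, against 16.4% in the genome. Within a line, 89.0% of the chromosome 20 peaks of BT474 with vehicle were found again with EGF, against 91.2% in the genome, and 20.2% in SKBR3, against 13% in the genome. The EGF list of BT474 is the longer one, and with lists of equal length the BT474 share was 58.9%. With equal length, the share of SKBR3 peaks with EGF found in BT474 with EGF was 23.6% on chromosome 20. With the whole lists it was 64.4%.

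The peaks of highest score differed between lists. In SKBR3 with vehicle they included a peak 7.69 kb from CTCFL and a peak in an intron of PTPRA, a receptor tyrosine phosphatase. With EGF they were in an intron of CDH4, a cadherin, at the promoter of MIR663AHG and in an intron of APCDD1L-DT. In BT474 with vehicle they were 49.0 kb from PTPN1, a phosphatase that acts on receptor tyrosine kinases, 76.5 kb from SNRPB2 and 99.8 kb from ADRA1D. With EGF they were in CBFA2T2, near PTPN1 at the same place, and 161 kb from BTBD3. The peak in CBFA2T2 was in all 4 lists and in no H3K4me1 island, whereas that near PTPN1 was in an island in all 4 libraries.

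HER2 peaks on chromosome 20 did not favour H3K4me1 islands. The share of peaks that touched an island of the same line was 23% ± 1.07 in SKBR3 with vehicle, 21.3% ± 1.63 with EGF, 15.9% ± 1.23 in BT474 with vehicle and 14.9% ± 1.12 with EGF (SD over the 2 island libraries, n = 2). Divided by the cover of the chromosome this was 0.891, 0.824, 0.822 and 0.769, below 1 in every list. By arm the ratio was 0.651, 1.02, 1.16 and 1.11 on 20p and 0.973, 0.716, 0.733 and 0.654 on 20q, in the same order. Over the whole genome the same ratio was 1.39, 1.36, 1.24 and 1.13. Of the 18 sites in all lists, those in PTPRA and in PELATON, a long non-coding RNA, were in an island in all 4 libraries.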

How the data were processed

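Samples were grouped by line, treatment and antibody as labelled, and the 2 inputs were not used here. According to the published methods, reads were aligned to hg19 with bowtie2 and those of low mapping quality dropped, SICER made the H3K4me1 islands and MACS2 the HER2 peaks with the input of each line as control, and blacklisted regions and, by GreyListChIP, regions of high input were removed. The processing notes of the submitters name BWA 0.5.9, MACS 1.4.1 and SICER 1.1 instead, and the lists do not settle this. The count of reads per island is as deposited by the authors, unscaled. The score of each HER2 peak is as deposited by the authors, on a scale that is not stated.

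Genes came from GENCODE v44 lifted to GRCh37, sequences from GRCh37. Islands were assigned to 1 Mb bins by midpoint for reads and by bases for cover. Bin reads were tested with edgeR 4.0.16 (quasi-likelihood, offset island kb times library median), and bin, arm and gene cover or density with limma 3.58.1, genome-wide with Benjamini-Hochberg adjustment at 0.05. Genes with a mean cover under 5% and bins under 1% were left out of the cover tests, and arms needed 10 bins. With 2 replicates per line, whose origin in separate cultures is not stated, p-values measure the spread between these samples. The tests were tested on simulated data.

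Named were listed genes in dense bins, the 12 largest called differences in each direction, genes at the 3 highest HER2 peaks of each list (1 is not reported here) and at peaks in all lists, genes at the 3 widest islands, and, where the text says so, genes named for their values, with DOK5 for its place in an empty stretch. The members, gene lists and motifs were chosen with earlier results of these data known. Alternatives were other scalings, filters, bin sizes, scales, gene windows, overlaps and thresholds, and the omission of each replicate.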

Additional observations from a re-analysis of the deposited data

Results flagged for a closer look

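The number of HER2 peaks on chromosome 20 with EGF over that with vehicle was 0.879 in SKBR3 and 3.65 in BT474, on either side of 1. The genome-wide ratios were 0.971 and 3.43, so the same holds over all chromosomes. Each ratio rests on 1 list per condition, the SKBR3 lists held 198 and 174 peaks, and the difference was not tested.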

How the results depend on the processing

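With TMM scaling 12.2% of tested chromosome 20 bins were denser in SKBR3, against 55.1%, and 46.9% in BT474, against 34.7%, while over all bins TMM gave 8.55% and 63.6%. The 20q arm difference was 0.20 with the mean over bins and 0.34 with all reads over all island kb, and -0.12 to -0.04 (-0.117 to -0.0360) without a replicate, while 20p gave -0.116 to -0.103. The arms were not tested with TMM. Without a replicate, bins denser in SKBR3 were 44.9% to 53.1% and in BT474 30.6% to 34%, bins of higher cover 47.4% to 63.2% and 14% to 17.5%, genes of higher cover 11.1% to 24.5% and 7.66% to 10.2% (32.6% and 16.8% with all), and dense bins of BT474 12.2% to 14.3%. Within 5 kb of the start site 7.73% of chromosome 20 genes were higher in BT474, against 21.5% of all genes tested in that window. In SKBR3 23.8% of chromosome 20 genes were higher there, against 12.96% of all genes. The difference of STAU1 was -3 in that window. Of 51 called listed genes 21 kept their call there, 26 lost it and 4 reversed (PLCB4, RRBP1, STAU1 and TRIB3). SULF2 had -2.17 to 32.8 without a replicate. At 1.5 times the median 14.3% of bins were dense in SKBR3 and 26.5% in BT474, and at 3 times 0% and 2.04%. HER2 sharing with lists of equal length was 58.9% for BT474 vehicle in EGF, 6.19% for SKBR3 in BT474 vehicle and 23.6% for SKBR3 in BT474 EGF, the last 57.0% with the peaks above the median score of each list. HER2 peaks in islands of both replicates were 18.2%, 17.8%, 12.7% and 11.7% in list order, and with those above the median score 26% in SKBR3 vehicle, 17.2% in BT474 vehicle and 18.1% in BT474 EGF. Peaks per Mb in dense over other bins of chromosome 20, 0.796 in SKBR3 vehicle and 0.232 in BT474 EGF, became 1.27 and 0.396 with bins dense at 1.5 times the median, and 0 in all 4 lists at 3 times. The causes were not tested.

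The labels number replicates 1 and 2 in both lines, which pairs them by number only (correlation of deviations -0.0046 for density, -0.222 for cover, -0.0360 for genes). A replicate block gave 20.6% of genes higher in SKBR3 and 10.2% in BT474, called 34 of the 52 listed genes, and moved no count of bins by over 1.5 times and no arm call. A crossed pairing, added after seeing the data, called 27 and 17 bins for density, 38 and 9 for cover, and 111 and 56 genes. Without 50 to 58 Mb, also added later, 27 of 43 bins were denser in SKBR3 and 11 in BT474, and 139 and 66 of 426 genes had the higher cover. The depth of the HER2 lists is unknown.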
